A study of Helianthus annuus with 180 samples.

Results

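Ha412HOChr14g0683131 is a sunflower gene that the study annotated as a homolog of the Arabidopsis gene AT1G17860, a Kunitz family trypsin and protease inhibitor. It is 1 gene of the 46480 listed in the count tables of the series, and its ID places it on chromosome 14. The gene was picked for its high level on lit sides of stems at ZT4, 1 hour after blue light from one side came on, so the ZT4 difference is given here as a description with no test. The field plants are separate libraries that did not enter that choice. The ZT4 ranking was limited to genes averaging at least 10 CPM (the count scaled to the size of the library) over all phototropism libraries. This gene averaged 10.9 CPM, and its lit values at later time points counted toward that mean. Its later side differences in phototropism are thus not fully independent of the choice. The gene also belongs to a set that the study called higher on lit sides at ZT15, so its direction at ZT15 is no independent evidence.

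Kunitz inhibitors are small proteins that sit in the active site of serine proteases such as trypsin and block them, and some also block papain-like cysteine proteases. In plants they are best known as storage and defense proteins, and many are induced by wounding, herbivores or the wound hormone jasmonic acid. The genes often lie in tandem clusters of close copies, which matters for how short reads are assigned to them.

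In the phototropism experiment, wild-type (WT) HA412-HO plants raised in growth chambers were lit by blue light from one side from ZT3 on (ZT, zeitgeber time, hours after lights on or dawn), and peels of the first internode were taken from the lit and from the shaded side at 9 time points between ZT3 and ZT21. In the heliotropism experiment, WT plants of the same line were moved from chambers to the field as seedlings, where they tracked the sun, and peels were taken from the west and from the east side every 4 hours from ZT0 to ZT44. There were 6 libraries per side and time point in phototropism (18 groups) and 3 in heliotropism (24 groups), and each library pooled 2 plants. The labels do not say whether libraries of the same number on both sides came from the same plants. Markers of several stem tissues were present in the peels: homologs of epidermal markers had a summed level of 35.9 to 169 CPM (the count scaled to the size of the library) over the phototropism libraries and 26.4 to 116 CPM over the field libraries, and those of xylem and phloem markers 232 to 507 CPM and 224 to 566 CPM. In such bulk peels fewer cells of a type and less RNA per cell cannot be told apart.

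The estimated counts of a library summed to between 4485611 and 28394943 in phototropism (median 11119560) and between 5074975 and 30834562 in heliotropism (median 16615264). Ha412HOChr14g0683131 averaged 10.9 CPM over the phototropism libraries (median 1.54) and 22.1 CPM over the field libraries (median 19.3). The experiments were normalized separately, so these levels are set side by side only. The gene varied widely between libraries of a group. Its biological coefficient of variation, the spread beyond counting error in the edgeR model, was 1.14 in phototropism (median of all genes 0.215) and 0.725 in the field (median 0.161). It was higher than that of 95.7% and 94.97% of the genes tested.

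The counts are salmon estimates, in which a read that matches several similar transcripts is divided among them. The estimate for this gene was not a whole number (within 0.0005) in 101 phototropism libraries, and the other 7 libraries were at 0. In the field it was not whole in 72 of 72. The level of this gene may thus hold reads of close copies, and the share of such reads was not tested. How often other genes had estimates that were not whole is not given here, so this trait is not shown to be particular to the gene.

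At the start of the blue light, ZT3, the gene was barely expressed on either side. Lit libraries had 0 to 1.11 CPM (median 0.169), and shaded libraries had 0.158 to 0.929 CPM (median 0.489), which is at most 10 counts in a lit library and 15 in a shaded one. The sides overlapped, and the lit library was the higher one in 2 of the 6 pairs of the same replicate number. The fitted log2 fold change of lit over shaded was -0.55 ± 1.402 (SE, n = 6 libraries per side, edgeR quasi-likelihood test, adjusted p = 1.0), at a time point where 0.00306% of the 32644 genes tested differed between the sides.

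At ZT4, 1 hour later, the 6 lit libraries had 7.82, 8.26, 27.6, 20.7, 6.44 and 11.6 CPM, against 0.690, 0.0493, 1.32, 1.66, 0.126 and 0.132 CPM in the shaded libraries of the same numbers. Every lit library lay above every shaded one, as it did for 2.25% of all genes tested, and the lowest lit library was 3.89 times the highest shaded one. The fitted log2 fold change was 4.50, which is 22.6-fold, and 10.8% of genes passed an adjusted p of 0.05 in this comparison. The gene was picked for this value, so its rank by it is no result. For scale, the 2 genes with the next lower fold changes toward the lit side, among those averaging at least 10 CPM, past the threshold and with no overlap of the sides, were Ha412HOChr03g0133691, a homolog of ELIP2 (AT4G14690), an early light-induced chlorophyll-binding protein of the thylakoid, with a log2 fold change of 4.38 and 89.8 CPM on lit sides against 4.22 CPM on shaded sides, and Ha412HOChr08g0350501, with a log2 fold change of 4.24 and 24.3 CPM on lit sides against 1.36 CPM on shaded sides.

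From ZT7 to ZT21 the gene was higher on lit sides. In the joint edgeR fit the side difference passed an adjusted p of 0.05 at each of the 6 time points from ZT7 on, with log2 fold changes of 2.61 to 4.72, and at ZT5 it was 2.24 ± 0.91 with an adjusted p of 0.0894. Lit and shaded libraries of the same number deviated together across genes and were taken as paired, and with the replicate number as a block the ZT5 difference was 2.21 ± 0.51 (adjusted p = 0.000591, in a fit that called 26.4% of genes tested). From ZT5 on, the lit library was the higher one of its pair in 5 of 6 pairs at ZT18 and in 6 of 6 at each of the other 6 time points.

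**Figure D1:**
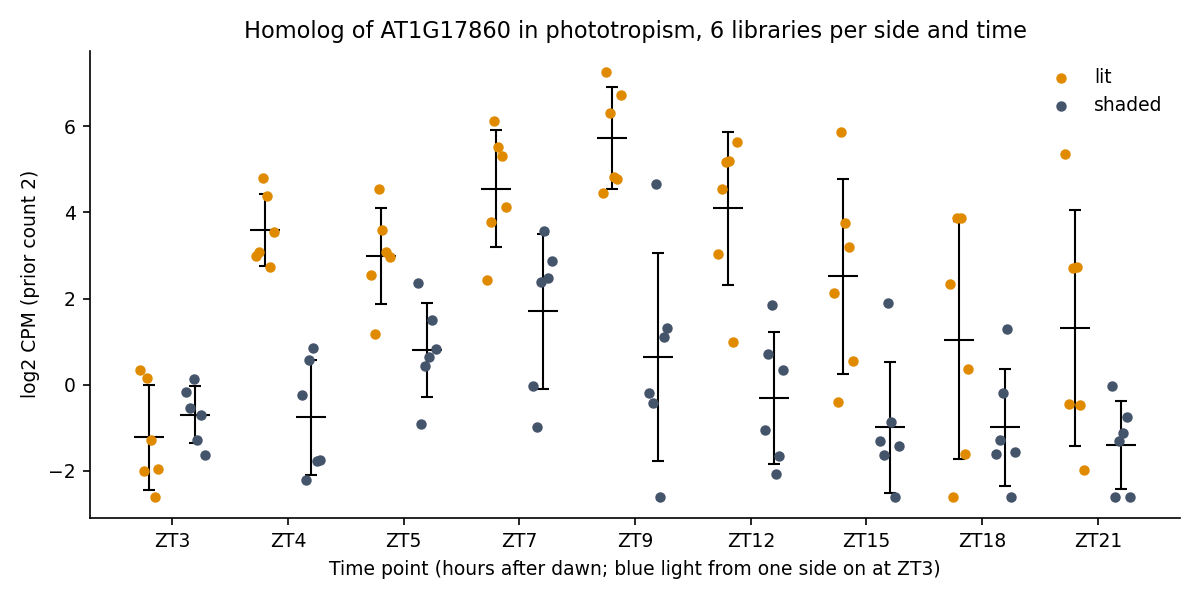
The AT1G17860 homolog on lit (orange) and shaded (dark blue-grey) sides of phototropic stems. Each point is 1 library, the y axis is log2 CPM (prior count 2), the horizontal bars are means and the error bars are SD over 6 libraries. The sides overlap at ZT3, separate fully at ZT4, and lit libraries spread widely from ZT15 on.

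At ZT5 the lit libraries had 2.12 to 23.1 CPM (median 8.00), against 0.370 to 4.98 CPM (median 1.51) in shaded libraries. Of the 6 lit libraries, 5 lay above the highest shaded one. At ZT5, 14.1% of all genes tested passed the threshold.

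At ZT7 the lit libraries had 5.25 to 69.2 CPM (median 28.4), against 0.340 to 11.7 CPM (median 5.22) in shaded libraries. Only 1 lit library fell within the shaded range. The log2 fold change was 2.61 ± 0.85 (adjusted p = 0.0166), when 23.3% of genes tested differed between the sides.

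Of all time points, ZT9, 6 hours after the light came on, had the highest mean on lit sides. Lit libraries had 21.8, 153, 79.5, 28.1, 27.1 and 105 CPM, against 0.716, 0.580, 25.0, 0, 1.99 and 2.34 CPM in shaded libraries, so that a single shaded library reached the lit range. The log2 fold change was 3.72 ± 0.88 (adjusted p = 0.000709), and 22.3% of genes tested passed. Leaving out replicate 3, which holds that shaded library, gave a log2 fold change of 5.76.

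At ZT12 the lit libraries had 1.81 to 49.4 CPM (median 29.6), against 0.0731 to 3.45 CPM (median 0.711) in shaded libraries, with 5 lit libraries above all shaded ones. The log2 fold change was 4.50 ± 0.98 (adjusted p = 0.000398), and 16.7% of genes tested passed.

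From ZT15 on the lit libraries spread over a wide range while shaded libraries were low. At ZT15 the lit libraries had 0.593 to 58.1 CPM (median 6.59), against 0 to 3.53 CPM (median 0.224) in shaded libraries, with a log2 fold change of 4.52 ± 1.07 (adjusted p = 0.00213, 7.73% of genes called). At ZT18 they had 0 to 14.5 CPM (median 3.01), against 0 to 2.30 CPM (median 0.210) in shaded libraries, with a log2 fold change of 3.38 ± 1.12 (adjusted p = 0.0498, 6.51% of genes called). At ZT21 they had 0.0871 to 40.6 CPM (median 3.46), against 0 to 0.814 CPM (median 0.268) in shaded libraries, with a log2 fold change of 4.72 ± 1.12 (adjusted p = 0.00236, 6.22% of genes called).

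These late differences rest on few libraries. At ZT18 and at ZT21 only 3 of 6 lit libraries lay above the highest shaded one, and the shaded side had at most 19 and 16 counts in a library. The ZT18 call was lost without any 1 of the 6 replicates (adjusted p = 0.0627 to 0.160), with DESeq2 size factors (0.0504) and with no filter on low counts (0.0616). It held with the block (0.00143), and the ZT21 call was lost without replicate 1, whose lit library had 40.6 CPM (log2 fold change 3.77, adjusted p = 0.132). Without replicate 3 the ZT7 difference was 2.23 with an adjusted p of 0.0595, and no other left-out replicate changed a call at ZT5 to ZT21.

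Markers of other stem tissues were compared between the sides as well. The 6 xylem and phloem homologs (of the cellulose synthase IRX1, the cysteine protease XCP2 and the sucrose transporter SUC2) had a summed level of 318 to 407 CPM on lit sides at ZT15, against 283 to 309 CPM on shaded sides, so that the sides did not overlap. At the other 8 time points the ranges of the sides overlapped, with 274 to 468 CPM on lit sides against 266 to 395 CPM on shaded sides at ZT9. Of the 6, edgeR called 1 higher on lit sides at ZT9, ZT12 and ZT15 each and none at other times, and this was the SUC2 homolog Ha412HOChr04g0163651 (log2 fold change 0.55, 0.74 and 0.65 in order, adjusted p = 0.046, 0.008 and 0.0401). At these times 12.2%, 9.39% and 4.73% of all genes were higher on lit sides. With the block this homolog was called at ZT7, ZT18 and ZT21 as well, 2 of the 6 were higher at ZT9 and at ZT21, and 1 or 2 were lower at ZT4, ZT7 and ZT12. From ZT4 to ZT21 the blocked fit called 17.4% (ZT18) to 37.3% (ZT7) of all genes in either direction. Of the 8 epidermal homologs tested (of ATML1, CER1 and CER6), 1 was lower on lit sides at ZT9 and none was called at other times, while the block called 1 or 2 lower at ZT5, ZT9, ZT15, ZT18 and ZT21. Without the block 22.3% of all genes were called in either direction at ZT9. With it 26.4%, 36.7%, 20%, 17.4% and 17.5% were, at ZT5, ZT9, ZT15, ZT18 and ZT21 in order. The summed level of the epidermal homologs overlapped between the sides at every time point, with 71.7 to 125 CPM on lit sides against 85.8 to 137 CPM on shaded sides at ZT9. The chlorophyll-binding homolog Ha412HOChr04g0187831 (of LHCB1.3), a marker of green tissue, was not called without the block (edgeR log2 fold change -0.40 at ZT4, adjusted p = 0.0833), and with the block it was lower on lit sides at ZT4 (-0.39, adjusted p = 0.000657) and ZT5 (-0.26, adjusted p = 0.0239). It had 485 to 659 CPM on lit sides against 617 to 903 CPM on shaded sides at ZT4. A further CER1 homolog had at most 2 counts in a library and was too low to test. The part of tissue markers in the side differences was not tested.

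An exact permutation test of the mean log2 CPM of 6 lit against 6 shaded libraries, which makes no use of a count model and takes the libraries as unpaired, gave adjusted p values over the 8 time points other than ZT4 of 0.0216 at both ZT5 and ZT7, 0.0173 at both ZT9 and ZT12, and 0.0242 at ZT15. At ZT18 and ZT21 the exact permutation p was 0.153 and 0.0664 after adjustment, and at ZT3 it was 0.361. The blocked edgeR fit, which uses the pairs, gave adjusted p values of 0.00143 at ZT18 and 2.74e-06 at ZT21. The smallest two-sided p that 6 against 6 libraries allow is 0.00216 before adjustment. The mean log2 differences behind these p values were 2.17, 2.83, 5.07, 4.40, 3.51, 2.03 and 2.71 from ZT5 to ZT21 in order.

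Both sides were then set against their own level at ZT3, when the blue light came on. No libraries came from plants without light from one side at later times. Hours of blue light and time of day thus cannot be told apart in these changes. On lit sides the gene rose at all 7 time points from ZT5 to ZT21. Its log2 fold change over lit ZT3 was 4.76 ± 1.14 at ZT5 (adjusted p = 0.00082, 20.1% of genes called), 6.45 ± 1.14 at ZT7 (4.39e-06, 22.2%), 7.57 ± 1.16 at ZT9 (9.49e-08, 26.3%) and 6.16 ± 1.14 at ZT12 (6.21e-06, 27.1%). It was 5.31 ± 1.13 at ZT15 (0.000101, 26.5%), 4.05 ± 1.15 at ZT18 (0.00579, 18.8%) and 4.65 ± 1.13 at ZT21 (0.00121, 17.7%). The 7 comparisons share the same 6 lit ZT3 libraries, which had at most 10 counts each, so the size of these folds depends on few reads. Without replicate 4 the ZT18 rise and without replicate 1 the ZT21 rise missed the threshold (3.52, adjusted p = 0.051, and 3.51, adjusted p = 0.0637).

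On shaded sides the gene rose at ZT7 and ZT9. Its log2 fold change over shaded ZT3 was 1.97 ± 1.10 at ZT5 (adjusted p = 0.344, 6.5% of genes called), 3.28 ± 1.05 at ZT7 (adjusted p = 0.0241, 12.4%) and 3.30 ± 1.04 at ZT9 (adjusted p = 0.0134, 22.4%). From ZT12 to ZT21 it lay between -0.63 and 1.11 with adjusted p values of 0.532 to 0.980, at times when 13.7% to 28.9% of genes were called. The ZT7 rise was not called without replicate 4, 5 or 6 (adjusted p = 0.180, 0.0549 and 0.0791), and the ZT9 value was 1.48 without replicate 3 (adjusted p = 0.417). The shaded group means at ZT7 and ZT9 were 5.08 ± 4.23 and 5.11 ± 9.79 CPM (SD, n = 6), against 0.507 ± 0.290 CPM at ZT3.

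Whether the side difference itself had grown since ZT3 was tested directly. The change was positive at all 7 time points, from 2.79 ± 1.67 at ZT5 to 5.27 ± 1.82 at ZT21 on the log2 scale, but no adjusted p was under 0.05 in the edgeR fit without the block (lowest 0.0843 for ZT12, then 0.0941 for ZT9, and 0.169 to 0.468 for the others). At an unadjusted p under 0.05, 5 of the 7 passed, and DESeq2 called 3 of them. With the replicate number as a block, 5 of the 7 passed after adjustment: 3.07 ± 1.10 at ZT7 (adjusted p = 0.035), 4.91 ± 1.13 at ZT9 (0.000877), 5.07 ± 1.17 at ZT12 (0.00129), 4.82 ± 1.25 at ZT15 (0.007) and 5.40 ± 1.32 at ZT21 (0.00487). At ZT5 and ZT18 the blocked change was 2.66 ± 1.13 and 3.64 ± 1.29 (adjusted p = 0.112 and 0.0738). Without the block the share of all genes called was, from ZT5 to ZT21 in order, 5.55%, 7.97%, 7.27%, 3.22%, 1.37%, 1.52% and 1.6%, and with the block it was 23.0%, 23.1%, 16.8%, 9.96%, 7.59% and 6.79% from ZT7 to ZT21 in order.

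Ordered by mean level, the lit groups ran 0.414 CPM at ZT3, 5.85 at ZT18, 9.11 at ZT21, 9.80 at ZT5, 13.7 at ZT4, 14.4 at ZT15, 25.8 at ZT12, 31.7 at ZT7 and 69.1 at ZT9. Each neighboring pair in this order differed by less than the larger SD of the pair (6.89 at ZT18, 15.7 at ZT21, 7.26 at ZT5, 8.51 at ZT4, 21.9 at ZT15, 18.2 at ZT12, 24.1 at ZT7 and 53.2 CPM at ZT9). The shaded groups ran from 0.296 CPM at ZT21 to 5.11 CPM at ZT9, and each of their means was under every lit mean from ZT4 on.

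Libraries of the same number on opposite sides deviated together. The deviations of lit and shaded libraries of the same time point and number from their group means in log2 CPM were correlated over the 48 pairs other than ZT4 (Pearson's r = 0.527, permutation p = 8.00e-05; Spearman's rho = 0.541, permutation p = 0.00019, with 100000 shuffles within time points). The r was positive within each of the 8 time points (0.294 to 0.783) and 0.532 without the 2 pairs farthest from the median. In the field the same relation of west and east libraries over 36 pairs had an r of 0.741 (permutation p = 0.00184) and a rho of 0.654 (permutation p = 0.00213), and r was 0.645 without the 2 farthest pairs. Within the first field day alone r was 0.395 and within the second 0.841. Adjusted over the 2 relations, the p values of r were 0.00016 and 0.00184 and those of rho 0.00038 and 0.00213. By time point the field r was positive at 8 of 12, and ranged from -0.748 to 0.997 with 3 pairs each.

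**Figure D2:**
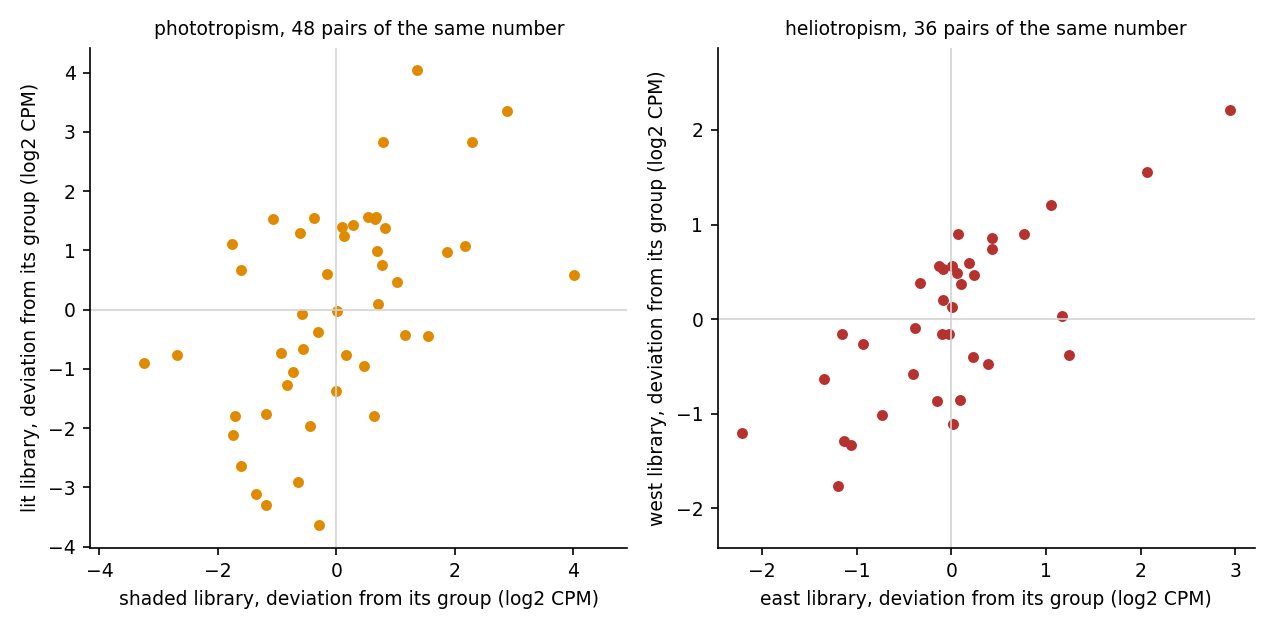
Deviation of each library from the mean of its group for the AT1G17860 homolog, in log2 CPM: lit (y axis) against shaded (x axis) libraries of the same time point and number on the left, ZT4 left out, and west (y axis) against east (x axis) on the right. Each point is a pair, and libraries high on one side tended to be high on the other (r = 0.527 over 48 pairs and 0.741 over 36 pairs).

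In the field the gene was present on both sides in all 72 libraries. West libraries had 1.60 to 64.7 CPM (median 20.004, n = 36) and east libraries 0.981 to 65.0 CPM (median 18.9, n = 36), and no library was at or under 3 counts, while 28 phototropism libraries were. The west library was the higher one in 21 of 36 pairs of the same number.

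No difference between west and east was called at any of the 6 times of day with both days combined (6 libraries per side). The log2 fold change of west over east was -0.18 ± 0.60 at ZT0, 0.29 ± 0.60 at ZT4, -0.03 ± 0.59 at ZT8, 0.71 ± 0.60 at ZT12, 0.59 ± 0.59 at ZT16 and -0.64 ± 0.60 at ZT20, with edgeR adjusted p values of 0.672 to 1.0. At these times 0.0554%, 0.152%, 1.57%, 1.79%, 5.78% and 3.54% of the 34315 genes tested were called. In this fit, which has no block, none of the 6 had an unadjusted p under 0.05, and DESeq2 called none. The 95% interval of the difference in the fit without the block reached from -1.18 to 1.13 at ZT8 and from -0.46 to 1.88 at ZT12. Differences of up to those sizes lie within these intervals. With the replicate number as a block the SE was smaller at each time. The difference was then 0.047 ± 0.29 at ZT8, 0.77 ± 0.31 at ZT12 and -0.70 ± 0.32 at ZT20 (edgeR adjusted p = 0.973, 0.12 and 0.194). No time of day was called with the block after adjustment, although ZT12 and ZT20 had an unadjusted p under 0.05. The exact permutation test gave adjusted p values of 0.813 to 0.909 over the 6 times. Of the tissue markers, 1 epidermal homolog was higher (log2 fold change 0.69, edgeR adjusted p = 0.0127) and the chlorophyll-binding homolog lower (-1.08, edgeR adjusted p = 0.000386) on west sides at ZT16, and 1 SUC2 homolog was lower at ZT20 (-0.97, edgeR adjusted p = 0.0293), and their part in the values of the gene was not tested.

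The field values overlapped widely. At ZT8 west libraries had 10.8 to 64.7 CPM (median 21.3), against 5.04 to 65.0 CPM (median 22.1) in east libraries. At ZT12 west libraries had 3.46 to 58.1 CPM (median 26.9), against 1.71 to 33.0 CPM (median 18.1) in east libraries. At ZT16 west libraries had 8.30 to 53.4 CPM (median 28.4), against 5.71 to 32.7 CPM (median 20.4) in east libraries, and at ZT20 west libraries had 1.60 to 32.4 CPM (median 17.4), against 0.981 to 39.6 CPM (median 31.2) in east libraries. Ordered by mean, the west groups ran from 15.05 ± 11.7 CPM at ZT20 to 30.8 ± 19.4 CPM at ZT16 and the east groups from 16.4 ± 12.6 CPM at ZT12 to 26.8 ± 21.2 CPM at ZT8 (SD, n = 6 each), with neighbors in each order differing by less than the larger SD.

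**Figure D3:**
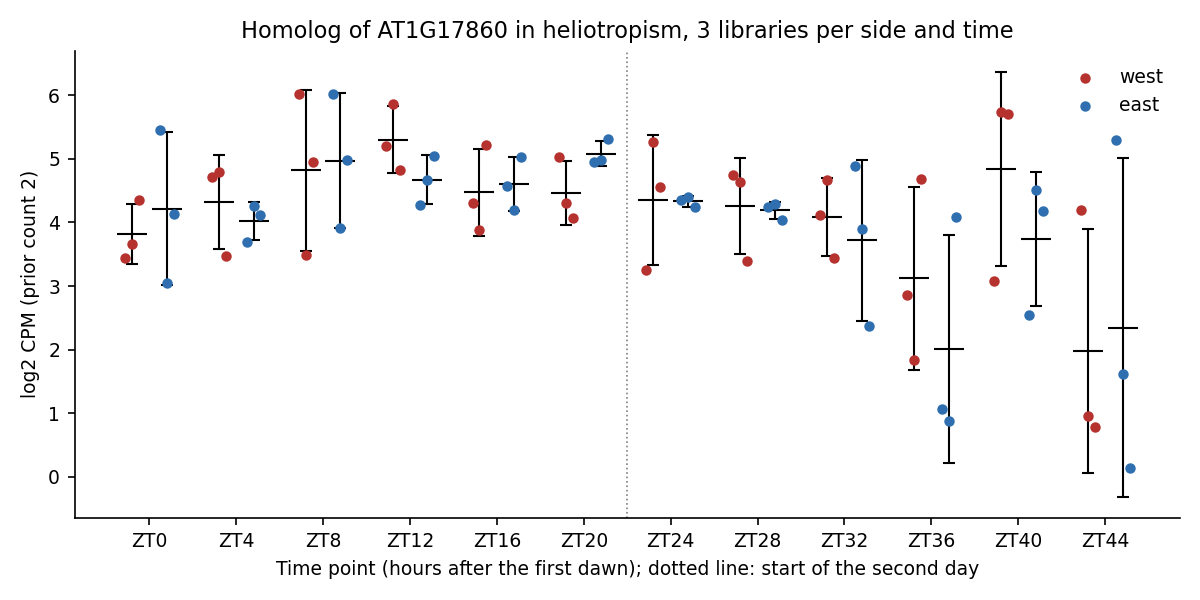
The AT1G17860 homolog on west (red) and east (blue) sides of solar tracking stems over 2 days. Each point is 1 library, the y axis is log2 CPM (prior count 2), the horizontal bars are means and the error bars are SD over 3 libraries. The sides overlap at every time point, and the lowest libraries are at ZT36 and ZT44.

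The level was lower on the second field day when all libraries were counted as separate samples. Averaged over sides and times of day, the log2 fold change of the second over the first day was -0.67 ± 0.23 (edgeR, adjusted p = 0.0279, 19.4% of genes called). At ZT36 the west libraries had 7.13, 3.46 and 25.5 CPM and the east libraries 1.98, 1.71 and 16.8 CPM, against 36.8, 58.1 and 28.3 CPM in the west libraries and 19.3, 25.3 and 33.0 CPM in the east libraries at ZT12 of the first day. At ZT44 the west libraries had 18.2, 1.83 and 1.60 CPM and the east libraries 39.2, 2.94 and 0.981 CPM, against 32.4, 19.7 and 16.6 CPM in the west libraries and 30.9, 31.5 and 39.6 CPM in the east libraries at ZT20 of the first day. In each case 2 numbers were low on both sides and the third was not. Of the 8 epidermal marker homologs tested, 6 were higher on the second day (9.0% of all genes were) and none lower, with a summed level of 39.8 to 113 CPM (median 81.1) on the second day against 26.4 to 116 CPM (median 60.3) on the first, while 1 of the 6 xylem and phloem homologs was higher and 1 lower (224 to 566 CPM on the second day against 238 to 563 CPM on the first). The chlorophyll-binding homolog was lower on the second day, by a log2 fold change of -0.31 (edgeR adjusted p = 9.5e-06), with 2.67 to 487 CPM on the second day against 6.50 to 467 CPM on the first. Their part in the difference between the days was not tested. With the counts of the west and east libraries of a number summed, the difference was -0.66 ± 0.30 with an adjusted p of 0.152, and without replicate 2 or 3 the adjusted p was 0.0769 or 0.0727.

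By time of day, a comparison chosen after the values were seen, the second day was lower at ZT12 by a log2 fold change of -1.89 ± 0.58 (adjusted p = 0.0296, 8.64% of genes called), which was not called with summed sides (adjusted p = 0.183) or without replicate 1 (0.0927) or 2 (0.413). The other 5 times of day had log2 fold changes of -1.36 to 0.25 and adjusted p values of 0.187 to 1.0, although without replicate 1 the ZT20 value was -3.68 (adjusted p = 0.00198). The 6 tests of the interaction of day and side called nothing for this gene (edgeR, log2 -0.30 to 1.33, adjusted p = 1.0 each, and no unadjusted p under 0.05), nor did they call more than 0.00583% of genes (ZT12), 0.00291% (ZT20) or 0.0% (the other times).

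No daily rhythm was called. A cosine of 24 hours fitted to the CPM of the 36 west libraries had an amplitude of 6.07 CPM around a mean of 23.2 CPM with a peak at 11.7 hours after dawn (F test, q = 0.309), and accounted for 7.73% of the variance. On east sides the amplitude was 0.828 CPM around 21.05 CPM (q = 0.971), with 0.199% of the variance. With the same fit 69.6% of all genes tested were rhythmic on west sides and 74.0% on east sides. On the first day alone the west amplitude was 11.7 CPM (q = 0.0949), and on the second 2.06 CPM (q = 0.947).

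Another 4 sunflower genes are annotated as Kunitz inhibitor homologs in the tables used here. Ha412HOChr07g0308651, Ha412HOChr07g0308661 and Ha412HOChr07g0308691 on chromosome 7 have the same Arabidopsis homolog, and Ha412HOChr17g0810831 on chromosome 17 is a homolog of KTI1 (AT1G73260), an inhibitor that in Arabidopsis is known to limit cell death during pathogen attack. All of them came from the set that the study found higher on lit sides at ZT15, so their direction at that time is no independent evidence.

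Without the block their side differences were called at ZT5 or later. At ZT4 none of the 4 was called by edgeR without the block or by DESeq2, or had an unadjusted p under 0.05, with log2 fold changes of lit over shaded of -0.67 to 0.24 and a median of -0.06 (median of all genes 0.03). At ZT5 and ZT7 only the KTI1 homolog was higher, by 0.62 ± 0.22 (adjusted p = 0.0377) and 1.094 ± 0.22 (adjusted p = 5.24e-05), with 204 ± 46.9 CPM on lit sides against 95.7 ± 40.3 CPM on shaded sides at ZT7 (SD, n = 6 each). At ZT9 all 4 were called higher on lit sides (log2 fold change 0.96 to 4.60), at ZT12 and ZT15 3 of 4 (medians 2.51 and 2.91), and at ZT18 and ZT21 1 of 4 each (medians 1.62 and 2.13). With the block the KTI1 homolog was also higher at ZT4 (0.28 ± 0.10, adjusted p = 0.0429) and ZT21 (0.57 ± 0.10, adjusted p = 4.22e-05), and at ZT9 only 2 of the 4 were called, without Ha412HOChr07g0308661 (1.29, adjusted p = 0.159) and Ha412HOChr07g0308691 (3.69, adjusted p = 0.0609). The medians of all genes at these times were -0.01 to 0.03, and the shares of all genes called higher on lit sides were 5.67%, 7.36%, 11.8%, 12.2%, 9.39%, 4.73%, 4.31% and 4.03% from ZT4 to ZT21 in order without the block, and between 9.48% (ZT21) and 19.0% (ZT9) with it.

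At ZT12, Ha412HOChr07g0308661 had 18.7 ± 19.4 CPM on lit sides against 1.60 ± 1.71 CPM on shaded sides (SD, n = 6 each, log2 fold change 3.53 ± 0.86, adjusted p = 0.00152). Ha412HOChr07g0308691 had 4.76 ± 5.77 CPM on lit sides against 0.0487 ± 0.119 CPM on shaded sides at the same time (6.17 ± 1.5003, adjusted p = 0.00159). The shaded level of the last gene is so near 0 that the size of its fold depends on the prior count of the fit.

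The KTI1 homolog was present on both sides from the start. It had 222 ± 102 CPM on lit sides against 184 ± 76.2 CPM on shaded sides at ZT3, and 65.4 ± 8.22 CPM on lit sides against 30.2 ± 4.13 CPM on shaded sides at ZT15 (SD, n = 6 each). Its log2 CPM had a Pearson correlation of 0.31 with that of Ha412HOChr14g0683131 over the phototropism libraries, as a description over libraries that share side and time. For the 3 chromosome 7 copies this correlation was 0.35, 0.47 and 0.46, and over the 72 field libraries all 4 lay between 0.02 and 0.16.

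**Figure D4:**
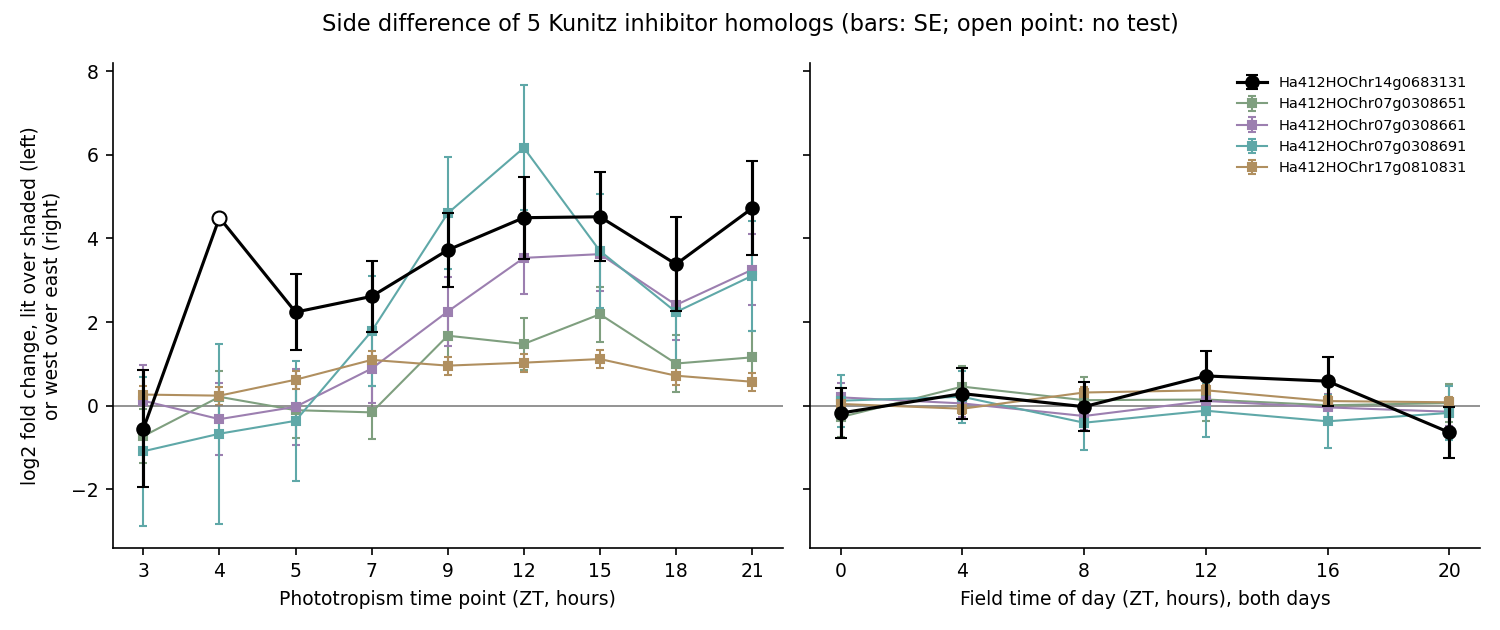
Fitted log2 fold change of lit over shaded at each phototropism time point (left) and of west over east at each field time of day (right), with SE bars, for Ha412HOChr14g0683131 (black) and the other 4 Kunitz inhibitor homologs. Ha412HOChr14g0683131 is at 4.50 at ZT4 (open point, no test) where the others lie between -0.67 and 0.24, and all 5 lie between -0.64 and 0.71 in the field.

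In the field none of the 4 was called between west and east at any time of day by edgeR or DESeq2. An unadjusted p was under 0.05 for 1 of them at ZT8 and 1 at ZT12, and the medians were -0.06 to 0.13. Between the days, Ha412HOChr07g0308651 and Ha412HOChr07g0308661 were higher on the second day by 0.64 ± 0.16 (adjusted p = 0.00295) and 0.63 ± 0.10 (adjusted p = 9.75e-06), when 9.0% of all genes were, while the chromosome 14 gene had -0.67.

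Inhibitors of other families were compared as a group of 17, homologs of potato inhibitor I (AT2G38870 and AT5G43580), which block serine proteases, of cystatins (AT2G40880, AT5G47550 and AT3G12490), which block papain-like proteases, and of a Kazal type inhibitor (AT4G01575). They were in part taken from gene sets chosen by expression in these samples, so their counts are a description and no independent evidence. Of the 16 tested in phototropism, 2, 0, 5, 8, 6, 7, 4 and 4 were higher on lit sides from ZT4 to ZT21 in order, while 1 was lower at ZT4, ZT5 and ZT12 each. Of all genes 5.67%, 7.36%, 11.8%, 12.2%, 9.39%, 4.73%, 4.31% and 4.03% were higher at the same times. With the block 2, 1, 5, 11, 7, 7, 3 and 4 were higher, when 10.4%, 13.3%, 18.8%, 19.0%, 17.3%, 11%, 9.78% and 9.48% of all genes were, and 1 was lower at each time from ZT4 to ZT12. The median log2 fold change of the 16 was 1.80 at ZT9 (median of all genes 0.01). In the field 1 of 17 was called higher on west sides at ZT16, when 5.78% of all genes were called in either direction, and none at the other times, where at most 2 had an unadjusted p under 0.05 and DESeq2 called none.

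Genes of the cellular response to blue light were a list of 11, mostly homologs of ELIP1 and ELIP2, the early light-induced proteins, with a homolog of SIG5 (AT5G24120), a sigma factor of plastid transcription. They too came from genes chosen by expression, those the study found higher on lit sides at ZT4. Their counts at later phototropism times are thus a description and no independent evidence. From ZT5 to ZT21 in order, 11, 10, 10, 9, 9, 9 and 9 of the 11 were higher on lit sides, with or without the block, and 1 was lower at ZT9 with the block. The shares of all genes higher at these times are those given above for the other inhibitors. In the field 3 of the 10 tested were lower on west sides at ZT0, 2 at ZT4 and 7 at ZT20, while 5 were higher at ZT8 and 1 at ZT12. Of all genes 0.0554%, 0.152%, 1.57%, 1.79% and 3.54% were called in either direction at ZT0, ZT4, ZT8, ZT12 and ZT20 in order. At ZT16 none of the 10 was called by edgeR or DESeq2, and 2 had an unadjusted p under 0.05. Ha412HOChr14g0683131 was called at none of these times of day.

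Jasmonic acid genes were followed as the hormone genes usually tied to such inhibitors. The biosynthesis and signaling genes came from those the study found higher on lit sides at ZT4. Their counts at later phototropism times are not independent of that choice and are given as a description. The field libraries did not enter it. Of the 14 biosynthesis genes 7, 9, 12, 5, 2, 0 and 1 were higher on lit sides from ZT5 to ZT21 in order, and 1 was lower at ZT7 (at ZT18, 2 had an unadjusted p under 0.05 and DESeq2 called 1). Of the 13 signaling genes 1, 6, 11, 5, 5, 2 and 3 were higher from ZT5 to ZT21 in order, and none was lower. Of all genes 7.36%, 11.8%, 12.2%, 9.39%, 4.73%, 4.31% and 4.03% were higher at these times. With the block the counts were 9, 11, 12, 7, 3, 1 and 2 biosynthesis genes and 4, 9, 12, 6, 7, 2 and 4 signaling genes, and 1 biosynthesis gene was lower at ZT7 and ZT12 each. In that fit 13.3%, 18.8%, 19.0%, 17.3%, 11%, 9.78% and 9.48% of all genes were higher, a share above that of the biosynthesis genes at ZT18 (1 of 14). At ZT9 the median log2 fold changes of the lists were 0.92 and 2.74 (median of all genes 0.01). In the field edgeR called none of the 13 tested in either list between west and east at any time of day. At ZT16 3 biosynthesis genes had an unadjusted p under 0.05 toward west and 1 toward east, and DESeq2 called 1 toward west at ZT16 and 2 toward east at ZT20.

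Subtilases and papain-like proteases, enzymes of the kinds that such inhibitors can block, were a list of 18 homologs not chosen by expression, of which 5 were tested in phototropism and 6 in the field. At each time point from ZT4 to ZT21, 2 of the 5 were higher on lit sides and none was lower, with or without the block, when 4.03% (ZT21) to 12.2% (ZT9) of all genes were higher without it. In the field 1 of 6 was lower on west sides at ZT16, when 5.78% of all genes were called in either direction, and none was called by edgeR at the other times, where 2 at ZT8 and 1 at ZT12 had an unadjusted p under 0.05 and DESeq2 called 1 at ZT8.

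The genes most like Ha412HOChr14g0683131 over the phototropism libraries, by the Pearson correlation of log2 CPM among 28167 other genes averaging 1 CPM or more (median r -0.01), were 5 genes with an r of 0.863 to 0.902. These were Ha412HOChr08g0342291 (r = 0.902), a homolog of dehydroascorbate reductase DHAR1 (AT1G19570), which recycles ascorbate, Ha412HOChr14g0683111 (0.899), which the tables used here do not annotate, and Ha412HOChr09g0405661 (0.875), a homolog of a family 31 glycosyl hydrolase (AT5G11720). Next came Ha412HOChr06g0258811 (0.864), a homolog of an alpha/beta-hydrolase (AT4G02340), and Ha412HOChr05g0210541 (0.863), a homolog of serine carboxypeptidase-like 29 (AT4G30810). The libraries share side, time and depth, and ZT4 is among them. Over the 72 field libraries, which did not enter that ranking, r was 0.418, 0.895, 0.314, 0.732 and 0.686 for the 5 genes in the same order.

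Since the phototropism libraries chose these 5 genes, their levels there are a description with no test. At ZT9 the DHAR1 homolog had 14.3 ± 9.77 CPM on lit sides against 0.742 ± 1.52 CPM on shaded sides (SD, n = 6 each), and the glycosyl hydrolase homolog had 179 ± 97.2 CPM on lit sides against 30.0 ± 11.8 CPM on shaded sides. In the field the glycosyl hydrolase homolog was the only 1 of the 5 called between the sides, lower on west sides by -0.62 ± 0.16 at ZT16 (adjusted p = 0.00697, 5.78% of genes called) and -0.76 ± 0.16 at ZT20 (adjusted p = 0.00161, 3.54% of genes called).

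Ha412HOChr14g0683111 stands immediately before Ha412HOChr14g0683131 in the order of gene numbers. It had a mean of 127 CPM in phototropism and 271 CPM in the field. At ZT9 it had 527 ± 300.3 CPM on lit sides against 86.7 ± 70.1 CPM on shaded sides (SD, n = 6 each). The lit library was the higher one of its pair in 5 of 6 pairs at ZT12 and in 6 of 6 at each of the other 7 time points from ZT4 on. At ZT3 the lit library was higher in 4 of 6 pairs, and it had 23.1 ± 16.8 CPM on lit sides against 23.2 ± 18.1 CPM on shaded sides.

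The gene before that, Ha412HOChr14g0683101, likewise varied with Ha412HOChr14g0683131 from library to library (r = 0.757 in phototropism and 0.91 in the field, the highest of all genes ranked there). With the group means taken out, r was 0.85 and 0.782 for the 2 neighbors in phototropism and 0.899 and 0.895 in the field. Among 5036 and 5259 pairs of genes up to 4 places apart on chromosome 14 the median r was 0.03 in both experiments. Estimated counts of Ha412HOChr14g0683111 and Ha412HOChr14g0683101 were not whole in 94.4% and 96.3% of phototropism libraries and in 100% of field libraries, and whether the 3 genes share reads was not tested. Ha412HOChr14g0683101 was not called between the sides at any phototropism time point in the fit without the block (log2 fold change 1.49 ± 0.67 at ZT9, edgeR adjusted p = 0.1001). With the block it was higher on lit sides at ZT9 and ZT12 (1.29 and 1.22, edgeR adjusted p = 0.000789 and 0.00259), when 19.0% and 17.3% of all genes were. At ZT4, the time that chose Ha412HOChr14g0683131, the blocked log2 fold change of Ha412HOChr14g0683101 was 1.01, given as a description with no test.

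**Figure D5:**
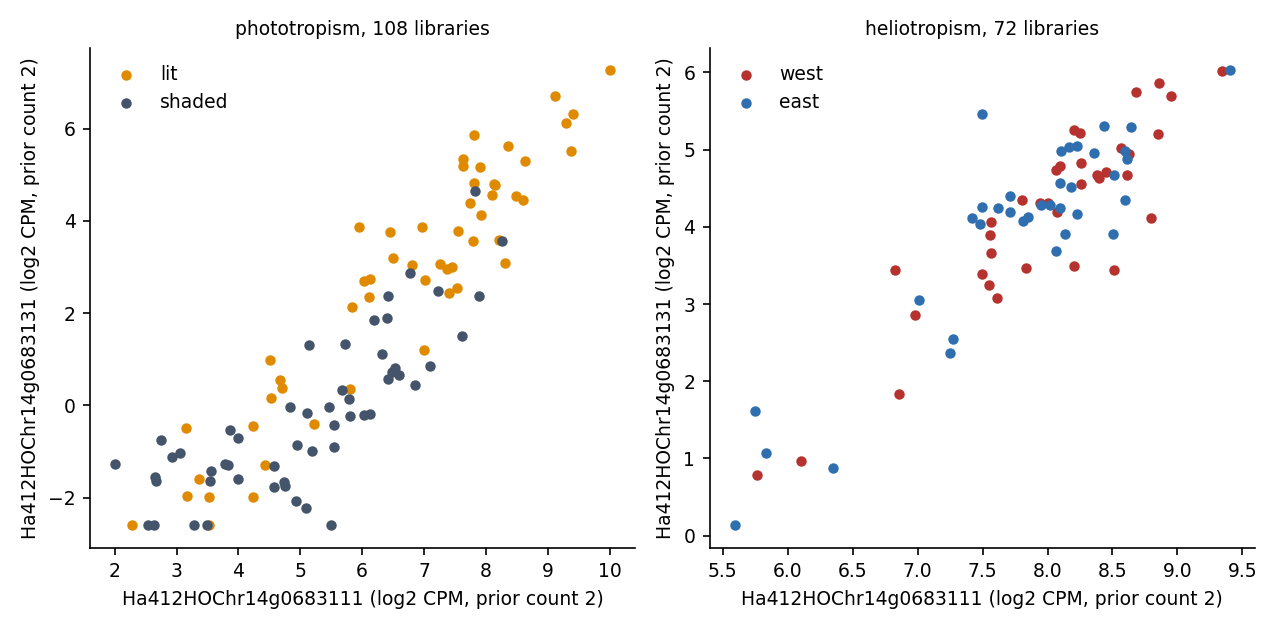
Ha412HOChr14g0683131 (y axis) against its neighbor by gene number, Ha412HOChr14g0683111 (x axis), both in log2 CPM (prior count 2), in the phototropism libraries (left, lit orange and shaded dark blue-grey) and 72 field libraries (right, west red and east blue). The genes vary together in both experiments (r = 0.899 and 0.895).

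The remaining neighbors were less alike. Of the 5 genes before and the 5 after it, 2 were too low to test, and 6 others had correlations of -0.26 to 0.57 with it in phototropism and of -0.17 to 0.07 in the field. The gene just after it, Ha412HOChr14g0683181, a homolog of a pectin lyase-like protein (AT5G04310), an enzyme family that acts on cell wall pectin, was lower on lit sides, with 15.1 ± 1.0895 CPM on lit sides against 32.1 ± 3.45 CPM on shaded sides at ZT5 (log2 fold change -1.093 ± 0.16, adjusted p = 3.19e-08).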

How the data were processed

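RNA-seq was done on stem peels, in 54 libraries per side in phototropism and 36 per side in heliotropism. The authors deposited expected counts (estimated counts per gene from salmon, on single-end reads, against the Ha412HO annotation) and TMM-normalized CPM, a signal that served only as an alternative here. The submitters' processing notes name Salmon 1.4.0, Cufflinks 2.2.1 and edgeR. The deposited counts were rounded to whole numbers and tested in R 4.3.3 with the quasi-likelihood test of edgeR 4.0.16 after TMM scaling, with p adjusted by Benjamini-Hochberg over the 32644 phototropism genes that reached 10 counts in 6 or more libraries, or the 34315 field genes that did so in 3 or more. CPM here are computed from the counts, with a prior count of 2 on the log2 scale. DESeq2 1.42.0 was an alternative. At 1 CPM or more the deposited and computed CPM of the gene differed by at most 4.93%. Named genes were the gene, its annotated lists, its 5 neighbors on either side by gene number, the 5 genes most alike in phototropism and the 2 next at ZT4. The gene and the lists were chosen with earlier results of these data known.

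Same-numbered lit and shaded libraries deviated together across genes in all 54 pairs (r 0.242 to 0.751), and were taken as paired on that ground, since the labels do not tie them to the same plants. No 2 libraries were identical. Code was tested on simulated data. Coordinates and sequences of the gene were not used here. The methods name 8 phototropism time points and the labels 9, which were followed.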

Additional observations from a re-analysis of the deposited data

Results flagged for a closer look

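In 7 of the 30 groups of 6 libraries examined, 1 library lay far from the other 5 by Dixon's test, which chance gives in about 1 of 20 groups where values spread normally. The test was run on CPM, a scale on which the levels of this gene are skewed, and all 7 were the highest library of their group. On the log2 CPM scale, a comparison chosen after seeing the data, none of the 7 stood apart, and 1 other group did (the lowest east library at the time of day ZT16). In phototropism these were the highest libraries of lit ZT15 (58.1 CPM), lit ZT21 (40.6 CPM), shaded ZT9 (25.0 CPM), shaded ZT15 (3.53 CPM) and shaded ZT18 (2.30 CPM). In the field they were the highest west library at the time of day ZT8 (64.7 CPM) and the highest east library at ZT0 (43.9 CPM). At ZT15 the lit and shaded libraries that stood apart carry the same replicate number. The cause was not tested.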

How the results depend on the processing

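Alternatives that kept every direction and call are not listed. With the replicate number as a block in phototropism, the ZT5 side difference (2.21) and the changes since ZT3 at ZT7 (3.07), ZT9 (4.91), ZT12 (5.07), ZT15 (4.82) and ZT21 (5.40) passed the threshold, and no other call of the gene changed. The ZT5 difference also passed with only the 12 libraries of the time point (2.24), a fit in which the gene passed the filter at 6 of 9 time points. The ZT18 difference missed the threshold with DESeq2 size factors (3.37) and with no filter on low counts (3.40). DESeq2 called the changes since ZT3 at ZT9 (4.11), ZT12 (4.88) and ZT21 (5.25).

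Leaving out each replicate gave side differences of 2.23 to 2.95 at ZT7, 2.87 to 4.16 at ZT18 and 3.77 to 5.01 at ZT21, and changes of the side difference of 3.29 to 6.50 at ZT9. Changes since ZT3 were 3.52 to 4.66 (lit ZT18), 3.51 to 5.17 (lit ZT21), 2.60 to 3.64 (shaded ZT7), 1.48 to 3.66 (shaded ZT9), -1.15 to 0.56 (shaded ZT15) and -1.31 to 0.47 (shaded ZT18).

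In the field none of the west and east values that turned direction was called: -0.65 to 0.54 at ZT0 and -0.10 to 0.20 at ZT8 without 1 replicate, 0.23 at ZT0 and 0.14 at ZT8 on the second day alone, and -0.068 at ZT16 on the first day alone. Field libraries of the same number had deviations across genes that correlated by 0.0373 to 0.395 (over 0.1 in 27 of 36 pairs, each best with its own number). With that number as a block, ZT8 was 0.047, and no time of day was called after adjustment, although ZT12 (0.77 ± 0.31, edgeR adjusted p = 0.12) and ZT20 (-0.70 ± 0.32, edgeR adjusted p = 0.194) had an unadjusted p under 0.05.

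The alternatives for the days were chosen after seeing the data. The second day over the first was -0.83 to -0.76 without 1 replicate and -0.66 with sides summed. By time of day it was -0.27 to 0.77 at ZT0, -0.080 to 0.13 at ZT4, -3.37 to -1.27 at ZT12, -0.60 to 0.36 at ZT16 and -3.68 to -0.93 at ZT20 without 1 replicate, -1.89 at ZT12 and 0.011 at ZT16 with sides summed, and 0.0060 at ZT16 with DESeq2 size factors. The side difference between the days was -0.27 to 1.06 at ZT8 and -0.77 to 0.64 at ZT20. Depth limits the low groups: 28 phototropism libraries had at most 3 counts of the gene. The causes were not tested.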
